A study of Mus musculus with 9 samples.

Results

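The S100 genes encode small calcium-binding proteins that work mostly as dimers. The genes described here are S100a1, S100a4, S100a6, S100a8, S100a9, S100a10, S100a11 and S100a13, 8 in all, and they were chosen by the measured heterozygous minus wild-type differences of S100a8 and S100a9, which were below 0. Their members are the probe sets that the platform annotation gives to 1 of these genes alone. This rule found 10 probe sets for 7 genes, among 18193 genes of the series with a probe set of their own. S100a11 has none, since its probe set is annotated to 3 genes, and no value is given for it.

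RNA of peripheral blood from E12.5 mouse embryos on a mixed C57BL6/129SvEv background was measured on Affymetrix expression arrays. The homozygous group (CbfbΔC95/ΔC95) carries 2 copies of the ΔC95 allele, the heterozygous group (Cbfb+/ΔC95) carries 1 copy, and the wild-type group (Cbfb+/+) carries none. The embryos came from crosses of heterozygous parents. Cbfb encodes the partner subunit that stabilizes the DNA binding of RUNX transcription factors, and the leukemia fusion protein CBFβ-SMMHC joins it to smooth muscle myosin heavy chain. The ΔC95 allele encodes a form of the fusion that lacks the end of its C-terminus. Homozygous embryos have no wild-type Cbfb allele, so the altered allele and the missing normal one cannot be told apart in them. Each group has 3 arrays, and each sample pooled the blood of 8 to 10 embryos. Whether the arrays of a group came from separate pools is not given in the sources used here, so each p-value reflects array-to-array spread only, and that spread may be technical.

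S100a8 and S100a9 form a heterodimer, calprotectin, which is abundant in neutrophils and monocytes, binds calcium, zinc and manganese, and signals through TLR4 and the receptor RAGE when released. S100a10 lacks working calcium sites and forms a complex with annexin A2 at the plasma membrane. S100a4 and S100a6 are known from motile and mesenchymal cells, S100a1 from heart and skeletal muscle, and S100a13 for its part in the release of FGF1 and interleukin 1 alpha, proteins that lack a signal peptide.

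Upstream sequences are printed for S100a8 and S100a9, whose difference led to the choice of the genes, and for S100a6, which held the most matches to the RUNX core among the genes searched. Each is the 250 bases before the gene's start, 5′ to 3′ on the gene's strand, from RefSeq on build GRCm38.p6. Capitals mark matches, on either strand, to the RUNX core TGTGGT, the C/EBP motif TTNNGNAAT, the PU.1 motif GAGGAAG or the GATA motif AGATAA.
S100a8, chr3:90668821-90669070, plus strand: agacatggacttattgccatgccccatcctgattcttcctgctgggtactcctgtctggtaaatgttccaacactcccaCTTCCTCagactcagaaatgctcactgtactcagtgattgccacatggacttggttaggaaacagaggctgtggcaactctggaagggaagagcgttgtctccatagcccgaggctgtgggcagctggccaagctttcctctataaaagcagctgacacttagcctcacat
S100a9, chr3:90695722-90695971, minus strand: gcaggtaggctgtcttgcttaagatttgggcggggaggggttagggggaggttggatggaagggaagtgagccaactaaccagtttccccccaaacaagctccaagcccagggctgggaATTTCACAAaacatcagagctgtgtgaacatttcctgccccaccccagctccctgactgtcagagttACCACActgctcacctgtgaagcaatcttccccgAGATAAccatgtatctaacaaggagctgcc
S100a6, chr3:90612644-90612893, plus strand: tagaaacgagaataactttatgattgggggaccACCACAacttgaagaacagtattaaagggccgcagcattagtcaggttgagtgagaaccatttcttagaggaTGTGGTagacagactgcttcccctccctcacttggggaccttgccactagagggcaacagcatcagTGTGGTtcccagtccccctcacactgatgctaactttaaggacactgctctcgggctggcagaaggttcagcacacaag

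The S100a8 stretch held 1 PU.1 match, which begins 171 bases before the start, and no match to the RUNX core. In S100a9 the C/EBP match began 131 bases, the RUNX match 64 bases and the GATA match 30 bases before the start. S100a6 held 3 RUNX matches, 217, 145 and 79 bases before the start. No matches overlapped. Promoters were found for 7 of the 8 genes, S100a10 being the one without, and over the full 300 bases searched (250 before the start and 50 after it) the RUNX core was present in 2 of these 7, S100a6 and S100a9. Over all 32851 promoters of the same length, 16.8% held the RUNX core, 11.5% the C/EBP motif, 13.6% the PU.1 motif and 11.2% the GATA motif. A match is only a run of letters, and no binding was measured.

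Values are RMA signals on the log2 scale, where a difference of 1 is 2-fold. Arrays of 1 genotype correlated at 0.996 to 0.998 over the 45037 probe sets tested. Embryonic globin transcripts, which mark the primitive red cells of this stage, were near the top of the range, with Hba-x at 14.35 in homozygous, 14.31 in heterozygous and 14.30 in wild-type blood. Cbfb itself, by its brightest probe set, was at 5.10 ± 0.16, 5.77 ± 0.04 and 6.01 ± 0.03 in the same order (SD, n = 3 each). Where this probe set lies on the transcript was not analysed here, so it is no check of the labels. The poly-A spike-in controls averaged 10.92 ± 0.02 in homozygous, 10.29 ± 0.00 in heterozygous and 9.51 ± 0.02 in wild-type arrays (SD, n = 3 each, 27 probe sets). Scaling to them would move all values by -1.41 in homozygous minus wild-type and by -0.78 in heterozygous minus wild-type blood. These include 3 Trpn probe sets, which may not belong to the spike-in mix, and without them the shifts are -1.58 and -0.88. Differences below are therefore relative to the other transcripts of an array. In bulk blood, fewer cells of a type and less RNA per cell cannot be told apart.

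S100a8 was lower in both mutant groups. Its signal was 4.94, 4.99 and 4.62 in homozygous, 4.60, 4.58 and 4.70 in heterozygous and 6.17, 5.82 and 5.85 in wild-type blood. Every mutant array lay below every wild-type array, and the homozygous and heterozygous arrays overlapped. The share of all probe sets whose groups separate in this way was not counted, for this gene or those below. In homozygous minus wild-type blood the difference was -1.09 ± 0.11 on the log2 scale (SE, 2.13-fold lower, 95% interval -1.33 to -0.85, limma adjusted p = 1.33e-05). This comparison shares its wild-type arrays with the one that led to the choice of S100a8. The heterozygous minus wild-type difference, -1.32 or 2.50-fold lower, is a value behind that choice and is given as a description. Homozygous minus heterozygous blood differed by 0.23, with an interval of -0.01 to 0.47, and no test is given because the heterozygous arrays were used in the choice.

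S100a9 read 4.64, 4.86 and 4.76 in homozygous, 4.74, 4.17 and 3.95 in heterozygous and 5.15, 5.26 and 5.26 in wild-type blood. All mutant arrays were below the wild-type ones, but the heterozygous arrays were widely spread (SD 0.41, against 0.11 in homozygous and 0.06 in wild-type blood), and their replicate 1 lay within the homozygous range. The homozygous minus wild-type difference of -0.47 ± 0.15 (SE, 95% interval -0.80 to -0.13) did not pass the threshold (limma adjusted p = 0.0504). As for S100a8, the wild-type arrays of this comparison were also used in the choice of the gene, so it is not independent of it. Over the alternatives tried the adjusted p lay between 8.85e-08 and 0.154, the lowest being under poly-A scaling, whose uniform shift makes all 10 probe sets pass and is no support. The outcome stayed the same in 13 of 21 alternatives. The limma adjusted p was 0.00165 with only the 2 groups compared, 0.0266 with an intensity trend and 0.0218 under reference gene scaling. It was 0.0621 under quantile normalization and 0.0892 with array weights. Without heterozygous replicate 1 the limma adjusted p was 0.00143, and without heterozygous replicate 3 it was 0.0207, since these arrays set the shared spread. In heterozygous minus wild-type blood, S100a9 was at -0.94, again a value that led to its choice. Without heterozygous replicate 1 this value was -1.17. Homozygous minus heterozygous blood gave 0.47, and 0.70 without that array, both given as descriptions.

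The wild-type mean of S100a8 was brighter than 79.5% of all tested probe sets in wild-type arrays, and its homozygous and heterozygous means were brighter than 61.6% and 57.0%. For S100a9 the same shares were 59.5% in homozygous, 50.1% in heterozygous and 68.2% in wild-type arrays. Detection calls were not used here, so whether the mutant levels exceed background is unknown, and the fold differences may be understated. The S100a8 probe set is of the _s_at type, which can read related transcripts, and it is the gene's only one.

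**Figure D1:**
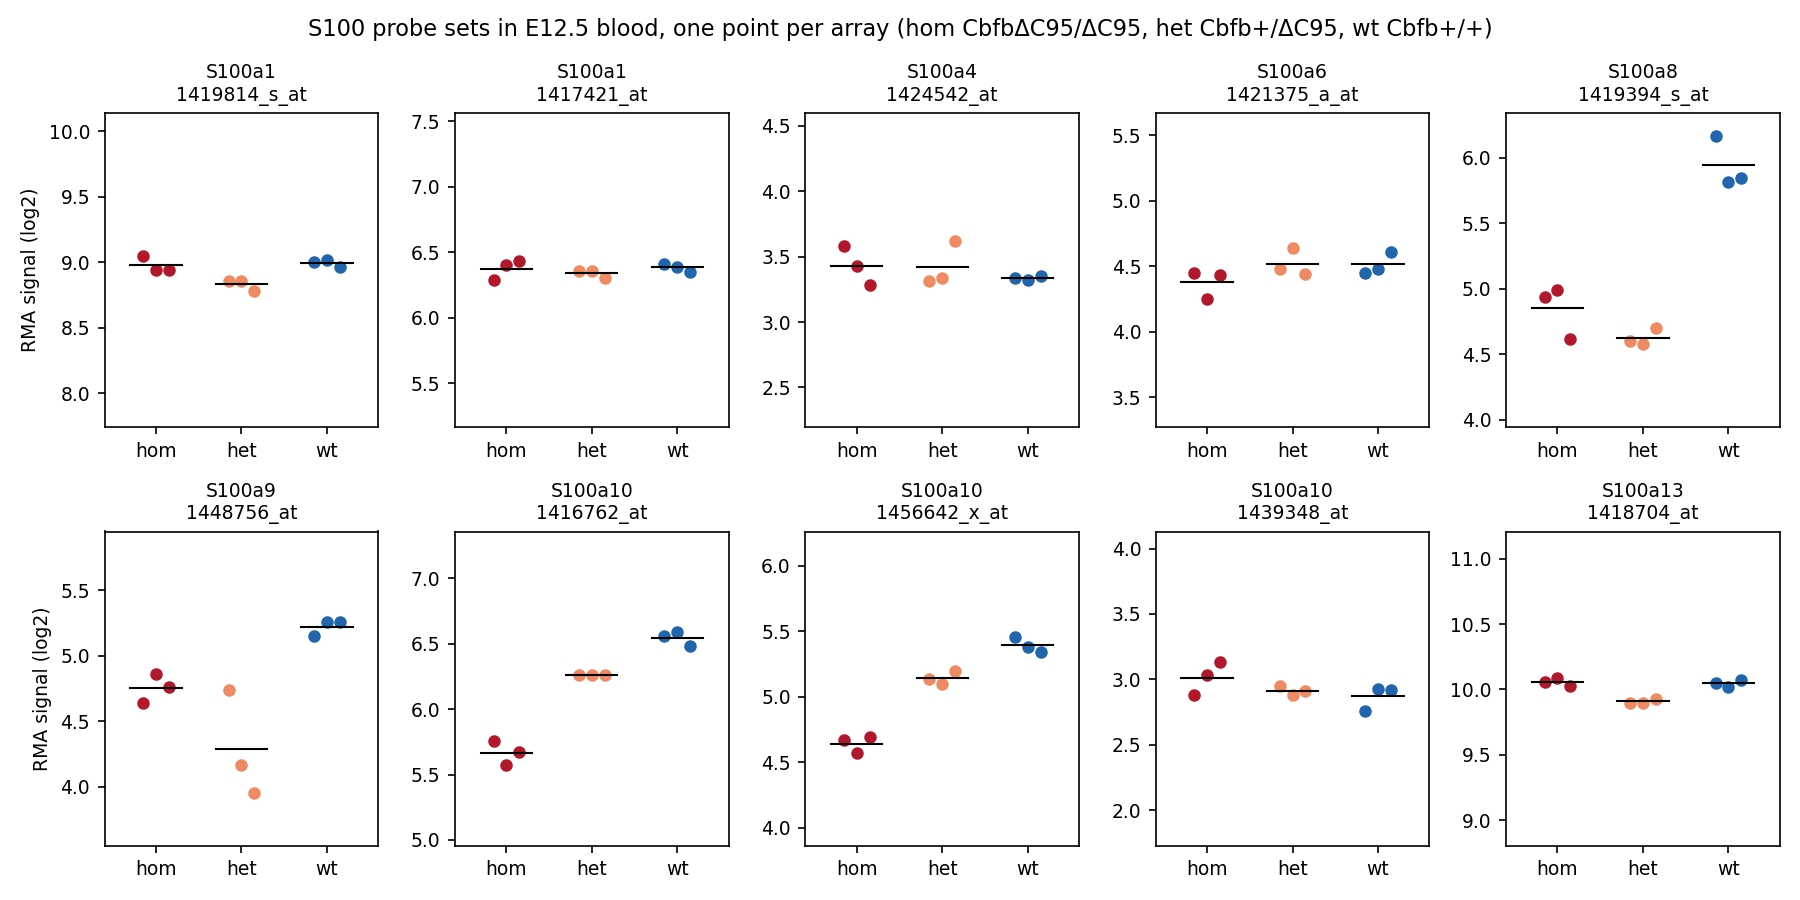
Signal of the 10 S100 probe sets on each array (log2 RMA signal, vertical axis, each panel spanning the same range of 2.4) in homozygous (hom), heterozygous (het) and wild-type (wt) blood. Points are arrays and lines are means of 3. S100a8, S100a9 and the brighter pair of S100a10 probe sets are lower in both mutant groups than in wild-type blood, while S100a4, S100a6 and the dim S100a10 probe set overlap between groups.

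S100a10, the annexin A2 partner, was stepped by genotype. By its brightest probe set, 1416762_at, it was at 5.76, 5.57 and 5.67 in homozygous, 6.26 on each heterozygous array and 6.56, 6.59 and 6.48 in wild-type blood. The 3 groups did not overlap. The heterozygous tie is not particular to this probe set. Mpo read 7.05 and Csf1r 9.06 on each heterozygous array, and the source of such ties was not tested. The homozygous minus wild-type difference was -0.87 ± 0.06 (SE, 1.83-fold lower, limma adjusted p = 9.58e-07), and homozygous minus heterozygous blood gave -0.59 ± 0.06 (SE, 1.51-fold lower, limma adjusted p = 5.47e-05). A further probe set (1456642_x_at) gave the same order, with means of 4.64 ± 0.06 in homozygous, 5.15 ± 0.05 in heterozygous and 5.40 ± 0.06 in wild-type blood (SD, n = 3 each), and differences of -0.76 from wild type (limma adjusted p = 2.31e-06) and -0.51 from heterozygous blood (adjusted p = 0.000146). The last probe set of the gene (1439348_at) disagreed, at 3.01, 2.91 and 2.87 in homozygous, heterozygous and wild-type blood, with 0.14 in homozygous minus wild-type blood (adjusted p = 0.221). It was among the dim ones, with 20.0% of tested probe sets below it in wild-type arrays. Heterozygous minus wild-type blood gave -0.28 and -0.25 for the brighter pair, as descriptions.

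The other genes gave no call in homozygous minus wild-type blood. S100a1, a regulator of calcium handling in muscle, was at 9.05, 8.94 and 8.94 in homozygous, 8.86, 8.86 and 8.78 in heterozygous and 9.00, 9.02 and 8.96 in wild-type blood by its brighter probe set. Homozygous minus wild-type blood gave -0.02 (95% interval -0.15 to 0.11), and the second probe set gave -0.01. S100a13 was at 10.06, 10.09 and 10.03 in homozygous, 9.90, 9.90 and 9.93 in heterozygous and 10.05, 10.02 and 10.07 in wild-type blood. Homozygous minus wild-type blood gave 0.01 (95% interval -0.10 to 0.12). In both genes the heterozygous arrays lay below all others, by -0.16 for S100a1 and -0.14 for S100a13 from the wild-type mean. These small differences are descriptions, and how often heterozygous arrays lie below all others among all probe sets was not counted. The brighter S100a1 probe set is also of the _s_at type. The second S100a1 probe set gave -0.05, with overlapping arrays.

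S100a6, whose protein binds the calcyclin-binding protein Cacybp, was at 4.38 ± 0.11 in homozygous, 4.52 ± 0.11 in heterozygous and 4.51 ± 0.08 in wild-type blood (SD, n = 3 each). The homozygous minus wild-type value was -0.13 (95% interval -0.30 to 0.04). This value did not pass the test (limma adjusted p = 0.274). The part of the 3 upstream RUNX matches of S100a6, printed above, was not tested. S100a4, also called metastasin, was at 3.43 ± 0.15 in homozygous, 3.42 ± 0.17 in heterozygous and 3.34 ± 0.02 in wild-type blood (SD, n = 3 each). At that level 30.6% of tested probe sets lay below it in wild-type arrays, and its homozygous minus wild-type value was 0.09 (95% interval -0.11 to 0.29).

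In homozygous against wild-type blood, 3 of the 10 probe sets were called lower and 0 higher (limma, adjusted p under 0.05), against 11.7% lower and 8.34% higher, or 20.0% in either direction, of all tested probe sets. At an unadjusted p under 0.05, 4 were lower and 0 higher. The 3 called ones are the S100a8 probe set and the brighter S100a10 pair, which read the same gene. S100a8 was chosen by a difference from these same wild-type arrays, so the count is not independent of the choice. The median of the 10 was -0.08, beside 0.04 for all probe sets. In heterozygous against wild-type blood, 4 were called lower, those of S100a8 and S100a9 and the brighter S100a10 pair, and 0 higher, against 5.15% lower, 3.41% higher and 8.56% in either direction of all, a contrast from which nothing is read because it was used in the choice. In homozygous against heterozygous blood, 2 were called lower, both of S100a10, against 7.95% of all, and 0 higher, against 4.17%, with 12.1% of all called in either direction. At an unadjusted p under 0.05, 2 were lower and 3 higher there. The share of all probe sets at an unadjusted p was not computed, so nothing is read from these unadjusted counts. S100a8, S100a9 and the brighter S100a10 pair kept their direction in homozygous minus wild-type blood under quantile, cyclic loess and reference gene scaling. Poly-A scaling lowers every difference by the same amount, so the sign of a member under it tells nothing about that member.

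**Figure D2:**
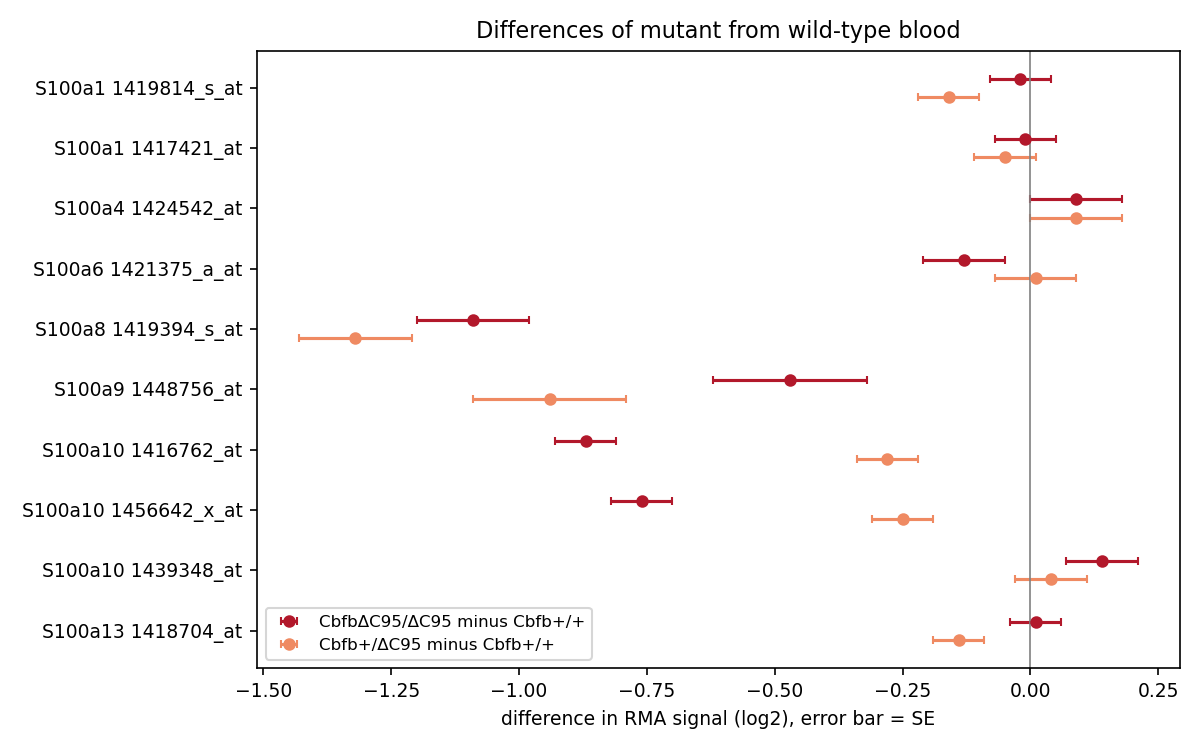
Differences of homozygous and heterozygous from wild-type blood for each S100 probe set (log2 RMA signal, horizontal axis; bars are SE from the limma fit). S100a8 lies beyond -1 in both, S100a10 is farther from 0 in homozygous than in heterozygous blood, and S100a9 is farther from 0 in heterozygous blood.

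The genes are also neighbours. In the RefSeq gene order of build GRCm38.p6, the run on chromosome 3 that begins with S100a1 and ends with S100a9 holds 12 protein-coding genes, all 12 of the S100 family, and 10 of them have a probe set of their own here. S100a8 and S100a9 lie side by side at one end. S100a7a, on the other side of S100a8, has no probe set of its own, and neither has the pseudogene next to S100a9, so the nearest measured neighbour is S100a6. S100a1 and S100a13 lie side by side at the other end, on opposite strands, and S100a10 lies apart on the same chromosome. Of the other S100 genes, 7 were measured by 9 probe sets. In homozygous against wild-type blood limma called 0 of the 9, beside 20.0% of all tested probe sets. An unadjusted p under 0.05 was found for 1, the dimmer S100a16 probe set at 0.15 (adjusted p = 0.0865), and nothing is read from it.

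S100a14, S100a16, S100a3 and S100a5, the other cluster genes between S100a13 and S100a6 with a probe set of their own, gave 0.13, 0.08, 0.06 and 0.15 in homozygous minus wild-type and 0.12, 0.07, 0.09 and 0.09 in heterozygous minus wild-type blood by their brightest probe sets. None of these passed the test. S100a7l2 gave 0.11 and 0.02, and S100b, a gene of glia, gave 0.11 and -0.07 by its brighter probe set, without passing. S100g, which encodes the vitamin D-dependent calcium carrier calbindin D9k, was at 5.98, 5.78 and 5.75 in homozygous, 5.38, 5.18 and 4.91 in heterozygous and 5.97, 6.04 and 5.93 in wild-type blood. The heterozygous arrays lay below all others, which was not counted over all probe sets. In heterozygous against wild-type blood S100g fell by 0.82 (limma adjusted p = 0.000467), and it gave 0.67 in homozygous minus heterozygous blood, which also passed (adjusted p = 0.00105), while homozygous minus wild-type blood gave -0.15 (adjusted p = 0.382).

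**Figure D3:**
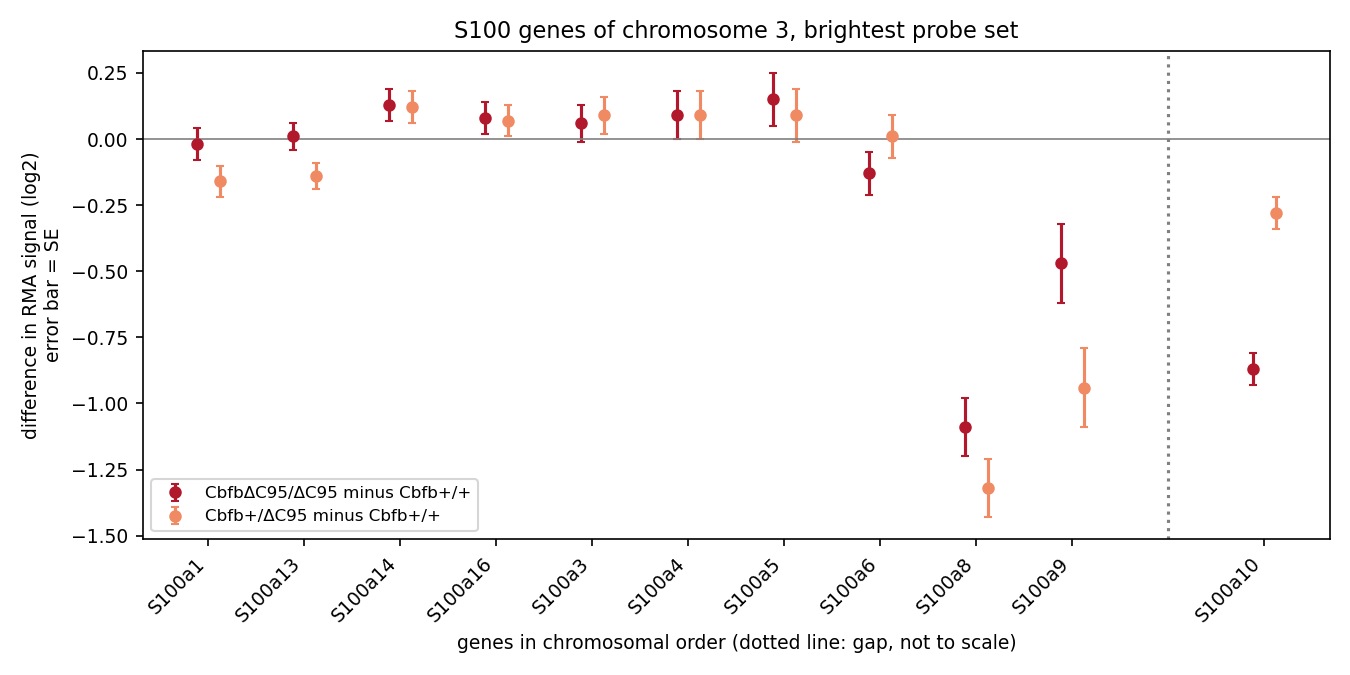
Differences of homozygous and heterozygous from wild-type blood (log2 RMA signal, vertical axis; bars are SE from the limma fit) for S100 genes of chromosome 3 in chromosomal order, by the brightest probe set of each. From S100a1 to S100a6 the values stay between -0.16 and 0.15, and S100a8, S100a9 and S100a10 lie lower.

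Receptors and binding partners of S100 proteins are next. In homozygous against wild-type blood 12 of 25 measured partner genes were lower and 1 higher, beside 14.9% lower, 10.7% higher and 25.6% in either direction of all 18193 genes, with a median of -0.20 beside 0.05 for all genes. The receptors of calprotectin, Tlr4 and Ager (which encodes RAGE), did not pass, at 0.20 (adjusted p = 0.183) and 0.14 (adjusted p = 0.155). Cd14, the co-receptor of TLR4, fell by 1.14, Cd68, a macrophage scavenger protein, by 1.23, and Cyba, a subunit of the phagocyte NADPH oxidase to which calprotectin delivers arachidonic acid, by 1.63 (adjusted p = 4.4e-06). In heterozygous against wild-type blood 4 of the 25 were lower and 2 higher, beside 7.04% and 4.79% of all genes (11.8% in either direction). In homozygous against heterozygous blood 10 were lower and 2 higher, beside 10.4% and 5.38% of all genes (15.8% in either direction). Cyba was at 6.75 in both heterozygous and wild-type blood, against 5.11 in homozygous blood, whereas S100a8 was low in both mutant groups. That contrast is a description, because S100a8 was chosen by its heterozygous values.

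For S100a10 the annexin A2 partner itself, Anxa2, was at 6.37 in homozygous, 6.78 in heterozygous and 6.57 in wild-type blood. Homozygous minus wild-type blood gave -0.20 ± 0.08 (SE, adjusted p = 0.0917), and homozygous was lower than heterozygous blood by -0.41 (adjusted p = 0.00367). Ahnak, a giant scaffold protein that binds the S100a10-annexin A2 complex, fell by 0.77 in homozygous against wild-type blood (adjusted p = 8.4e-05). Cacybp, the S100a6 binding protein, fell by 0.76 in homozygous (adjusted p = 4.52e-06) and by 0.43 in heterozygous against wild-type blood (adjusted p = 0.00171). Sugt1, a cochaperone that also binds S100a6, fell by 0.42 and 0.39. Myh9, the nonmuscle myosin whose filaments S100a4 takes apart, rose by 0.30 in heterozygous blood (adjusted p = 0.0205), and Il1a, whose release involves S100a13, fell by 0.26 (adjusted p = 0.0253). Il1a was dim, with 33.8% of tested probe sets below it in wild-type arrays. It gave 0.16 in homozygous minus wild-type (adjusted p = 0.111) and 0.42 in homozygous minus heterozygous blood (adjusted p = 0.0009). Tlr4, Ager and Anxa2 were named after their values were seen.

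Among 12 measured myeloid transcription factors, 6 were lower and 1 higher in homozygous against wild-type blood, beside 14.9% and 10.7% of all genes. One of the 6 is Cbfb, the altered gene itself. In heterozygous against wild-type blood 1 of the 12 was lower, near the 7.04% of all genes. Myb, a factor of definitive progenitors, fell by 1.98 in homozygous and by 1.21 in heterozygous blood. Its probe set is of the _x_at type, which can also read related transcripts. Cebpd and Cebpa, C/EBP factors of myeloid cells, fell by 1.27 and 0.38 in homozygous blood (adjusted p = 5.67e-06 and 0.00494) and gave -0.32 and -0.09 in heterozygous blood, where neither passed.

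Markers of cells that carry S100a8 and S100a9 were measured as well. Of 16 measured neutrophil and granulocyte markers, 3 were lower in homozygous and 4 in heterozygous against wild-type blood, beside 14.9% and 7.04% of all genes, and 0 were higher in either. The homozygous count is near the share over all genes, and the list medians were -0.04 in homozygous and -0.13 in heterozygous minus wild-type blood. The mean log2 level of the list ranged from 4.34 to 4.36 over homozygous, 4.29 to 4.38 over heterozygous and 4.48 to 4.58 over wild-type arrays. Mpo, which encodes myeloperoxidase, fell by 2.20 in homozygous and 0.77 in heterozygous blood. Prtn3, a serine protease of primary granules, fell by 0.52 in both. Mmp8, neutrophil collagenase, fell by 0.42 in heterozygous blood (adjusted p = 0.017) and gave -0.13 in homozygous blood. Chil3 fell by 0.34 and 0.35 at a dim level. Csf3r, the receptor of the granulocyte growth factor, gave -0.08 in homozygous and -0.10 in heterozygous blood and was not called, named after its value was seen. Chil3, Cxcr2, Lcn2 and Padi4 lay in the dimmest 40% of probe sets in wild-type arrays. No marker reads 0 on this scale.

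Monocyte and macrophage markers were lower in 16 of 20 genes in homozygous and 9 of 20 in heterozygous against wild-type blood, beside 14.9% and 7.04% of all genes. Their mean level was 4.52 to 4.59 on homozygous, 6.03 to 6.06 on heterozygous and 6.36 to 6.42 on wild-type arrays. The lysozyme gene Lyz2, found in neutrophils and macrophages, fell by 2.53 in homozygous and 1.15 in heterozygous blood, and Ctss, which encodes a lysosomal protease, fell by 2.82 in homozygous and 1.07 in heterozygous blood. Mrc1 and C1qa, of tissue macrophages, gave -3.49 and -3.02 in homozygous blood, where both were called, and -0.13 and 0.05 in heterozygous blood, where neither was. Csf1r and Fcgr3 gave -3.48 and -3.39 in homozygous and -0.56 and -0.35 in heterozygous blood, and both were called in each. Lyz1 gave -3.38 in homozygous and -1.36 in heterozygous blood, also called in each. Its probe set is of the _x_at type too, so Lyz1 and Lyz2 may not be separate readings. S100a10 had the same order of groups as the macrophage list, and S100a8 did not, since its homozygous arrays were not below its heterozygous ones. The heterozygous values of S100a8 were used in its choice, so this contrast is a description and nothing is read from it. The part of either list in the S100 values was not tested.

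Other cell types were measured beside these, and their counts stand beside 14.9% lower and 10.7% higher of all genes in homozygous and 7.04% lower and 4.79% higher in heterozygous against wild-type blood. Megakaryocyte and platelet markers were lower in 9 of 11 genes in homozygous and higher in 1 of 11 in heterozygous against wild-type blood. Mesenchyme and matrix markers were lower in 7 and higher in 1 of 11 in homozygous and higher in 4 and lower in 1 in heterozygous blood, with mean levels of 5.70 to 5.74, 6.26 to 6.32 and 6.01 to 6.04 on homozygous, heterozygous and wild-type arrays. S100a4 and S100a6, known from mesenchyme, had no called difference from wild type in homozygous blood, where Lum and Col3a1 fell by 1.02 and 0.94 and Fn1, which encodes fibronectin, rose by 0.88. Muscle markers were higher in 3 of 8 in heterozygous against wild-type blood (Actc1 at 7.44 against 4.95) and higher in 2 and lower in 1 in homozygous blood. S100a1, known from muscle, gave -0.02 in homozygous and -0.16 in heterozygous minus wild-type blood by its brighter probe set. Erythroid markers were lower in 4 and higher in 1 of 10 in homozygous and lower in 3 in heterozygous blood. Mast cell and basophil markers were lower in 1 of 7 in each, that of Cpa3. Of 9 endothelial markers Vwf was lower in homozygous and higher in heterozygous blood, and of 8 epithelial markers Krt18 was higher in homozygous blood.

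**Figure D4:**
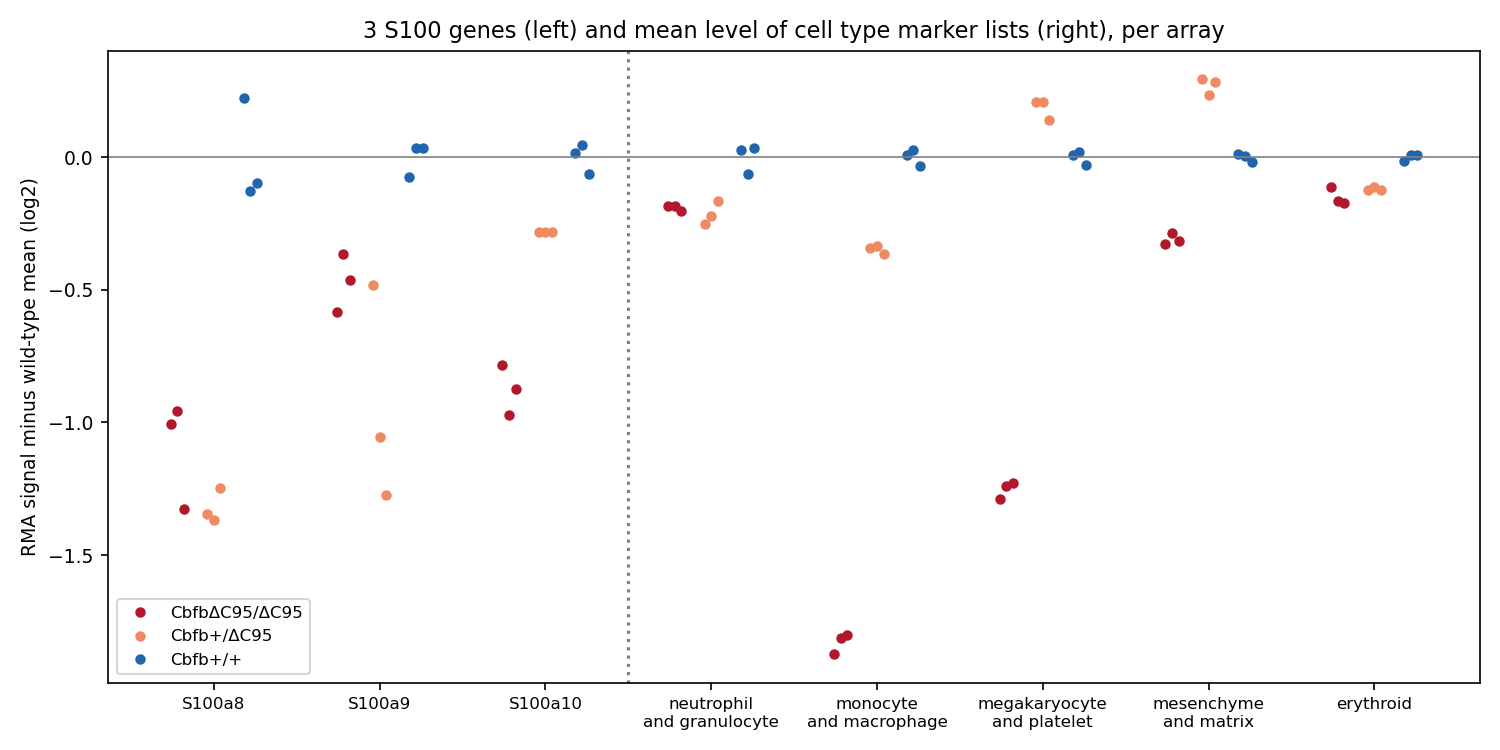
Level of S100a8, S100a9 and S100a10 (left of the dotted line) and mean level of marker lists (right) on each array, as a difference from the wild-type mean (log2 RMA signal, vertical axis). The macrophage and platelet lists separate homozygous from heterozygous arrays by more than 1, while for S100a8 these groups overlap. S100a8 was chosen by its heterozygous values, so that contrast is a description.

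Genes with patterns most like those of S100a8 and S100a9 were sought among 725 genes whose arrays span at least 1 on the log2 scale, by Pearson's r over the 9 arrays. The arrays fall into 3 genotype groups, so r mostly reflects the order of the group means, and it is a description. The 5 most like S100a8 were Maob (r = 0.968), Lrrc39 (0.960), Cfap36 (0.958), Plaat3 (0.957) and Slc2a1 (0.953). Maob, a mitochondrial monoamine oxidase, was at 4.92 in homozygous, 4.80 in heterozygous and 6.52 in wild-type blood. Slc2a1, the glucose transporter GLUT1, was at 9.78 in homozygous, 9.73 in heterozygous and 10.69 in wild-type blood. For S100a9 the likest were Rnpc3 (r = 0.900), the Y-linked Eif2s3y (0.874), Maob (0.789), Lrrc39 (0.787) and Kif20b (0.779). Eif2s3y, a transcript made only in male embryos, was at 5.65 in homozygous, 4.73 in heterozygous and 6.12 in wild-type blood. It was picked by its r to S100a9, so their shared order of groups comes from the search. The means of S100a8 and S100g also had this order, lowest in heterozygous and highest in wild-type blood. The part of the sex of the pooled embryos in the S100 values was not tested. For S100a10, a search added after its values were seen, Rbms1 (r = 0.997) and Ggnbp2 (0.996) were the likest, and Rbms1 was at 7.24 in homozygous, 7.87 in heterozygous and 8.19 in wild-type blood.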

How the data were processed

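Blood RNA of 9 arrays was analysed, 3 per genotype, grouped by sample title. The deposited table holds 45101 probe sets by 9 arrays. The authors' processing, per the submitters' processing notes, names Affymetrix Expression Console 1.0, RMA and Partek 6.5 without roles. The deposited log2 values span 1.49 to 14.56, and the log2 scale is inferred from that span. RMA makes array distributions equal, which removes uniform differences in RNA content. After 64 control probe sets were left out, limma 3.58.1 (R 4.3.3) fitted genotype means over the 9 arrays together, with Benjamini-Hochberg adjustment over 45037 probe sets, 2-sided, threshold 0.05. SE and 95% intervals are from this fit. Platform annotation names 1 gene for 34945 probe sets. A gene of a list is read by its brightest probe set. Members and lists were chosen with earlier results of these data known.

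Text names every chosen probe set and other S100 gene. From the lists it names some or all of the 4 called or 2 uncalled members with the largest change, but none of the platelet list. Of the 5 genes of like pattern it names all for S100a8 and S100a9 and some for S100a10, with additions marked. Array numbers did not pair: over 9 pairs of same-numbered arrays, deviations from group means correlated at -0.023 to 0.070. Alternatives were other sample sets, a replicate block, filters, variance priors, weights, 4 normalizations, gene level, thresholds and leaving out each array. Figures used matplotlib 3.10.9.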

Additional observations from a re-analysis of the deposited data

How the results depend on the processing

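Leaving out each array in turn, the S100 probe sets called lower numbered 3 to 4 in homozygous against wild-type, 2 to 4 in heterozygous against wild-type and 2 to 2 in homozygous against heterozygous blood. Those called higher numbered 0 to 1 in homozygous against heterozygous blood, the 1 being S100a9 without heterozygous replicate 1. That call is no support, because S100a9 was chosen by its heterozygous values. Without heterozygous replicate 1 or 2, or wild-type replicate 1 or 2, 2 were called lower in heterozygous against wild-type blood, against 4 with all arrays. With the replicate number as a block the counts called lower stayed at 3, 4 and 2, and no member call changed. Scaled to the poly-A spike-ins, 10, 10 and 9 members were lower in homozygous against wild-type, heterozygous against wild-type and homozygous against heterozygous blood, and 135, 131 and 133 list genes were lower and 0, 1 and 0 higher, so those calls hold only relative to other transcripts. That scaling lowers every difference alike, so small values above 0 had to turn and the turns say nothing about single genes. Under it S100a13, S100a4 and the dim S100a10 probe set reversed to -1.40, -1.32 and -1.27 in homozygous minus wild-type blood. In heterozygous minus wild-type blood S100a6, S100a4 and the dim S100a10 probe set reversed to -0.77, -0.69 and -0.74. In homozygous minus heterozygous blood the S100a1 pair reversed to -0.50 and -0.60, S100a13 to -0.49, S100a8 to -0.41, S100a4 to -0.63 and the dim S100a10 probe set to -0.53. Without _x_at and _s_at probe sets, which leaves out S100a8, 1, 2 and 1 members were lower in the same 3 comparisons, and with a 2-fold minimum 1, 1 and 0. At an adjusted p under 0.01, 2 were lower in heterozygous against wild-type blood. At gene level 1 was lower and 1 higher in homozygous against heterozygous blood, where an intensity trend gave 3 higher and quantile normalization 2, and the cause was not tested. Of the list genes, reference gene scaling called 4 higher in homozygous and 7 in heterozygous against wild-type blood, against 7 and 11, and quantile normalization called 8 higher in homozygous against heterozygous blood, against 4. Leaving out single arrays, the list genes called higher in heterozygous against wild-type blood numbered 7 to 16. Call counts rest on 3 arrays a group.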
